A study of Rattus norvegicus with 6 samples.

Results

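The miRNAs examined here were those of the miR-142, miR-223, miR-150, miR-155, miR-146a and miR-146b genes, which are known from white blood cells and from inflammatory signalling, and they were measured in whole testis. An entry of the miRNA table was taken if its name was that of one of these 6 genes, with or without an arm suffix. The rule itself uses names and no measured value, though the set was proposed with earlier results of these data known. The rule found 10 of the 721 entries, or of the 539 known miRNAs among them. The diabetic group held 3 Sprague-Dawley rats with STZ-induced diabetes, and the normal group 3 rats of the same strain labelled as normal. STZ is streptozotocin, a toxin of insulin-producing cells. By the methods section, diabetic rats had been fed a high-fat diet ahead of the injection, and control rats were given citrate buffer in place of STZ. Testes of the diabetic group were taken 8 weeks after STZ. The rats were adults, and their exact age and the diet of the control rats were not given in the sources used here. The samples were unsorted tissue, so that fewer cells of a type and less miRNA per cell cannot be told apart.

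miRNAs are RNAs of about the length of the sequences printed here that guide Argonaute proteins to matching messenger RNAs, which are then repressed. Base pairing is led by the seed, the bases near the 5′ end of the miRNA, and a hairpin precursor can yield one mature miRNA from each of its arms, called 5p and 3p. miR-142 is made by nearly all blood cell lineages, miR-223 by neutrophils and other myeloid cells, and miR-150 by mature lymphocytes. miR-155 and miR-146a are induced in activated immune cells, the first promoting inflammatory responses and the second restraining NF-κB signalling through the adaptors IRAK1 and TRAF6. The testis holds resident macrophages in the interstitium next to the Leydig cells, while lymphocytes and neutrophils are scarce in it.

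Mature sequences were read from RefSeq (assembly GRCr8), which held 9 of the 10 members by name. They are printed for the arms on which the comparisons turn, 5′ to 3′, with the seed (bases 2 to 8) in capitals.

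rno-miR-142-3p: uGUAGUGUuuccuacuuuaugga
rno-miR-142-5p: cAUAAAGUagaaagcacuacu
rno-miR-223-3p: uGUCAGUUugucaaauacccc
rno-miR-155-5p: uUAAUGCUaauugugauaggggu
rno-miR-146a-5p: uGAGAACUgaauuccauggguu
rno-miR-146b-5p: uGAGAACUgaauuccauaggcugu
rno-miR-146a-3p: aCCUGUGAaguucaguucuuu

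The 9 sequences carried 8 different seeds, and the only one shared was that of rno-miR-146a-5p and rno-miR-146b-5p. No other miRNA of the table with a RefSeq sequence (492 of the 539 known ones were found) had any of the 8 seeds. The pair was identical over its first 17 bases. Counted from the 5′ end of rno-miR-146a-5p, the differences over 22 compared positions were G18A and U21C, and rno-miR-146b-5p was longer by 2 bases. How reads that fit both were assigned is not given in the sources used here, so the split between them is uncertain, whereas their sum is less exposed to it.

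The 6 genes lie apart in GRCr8. Both arms of miR-142 come from chromosome 10, plus strand, with the 3p arm at chr10:73055155-73055177 and the 5p arm at chr10:73055119-73055139. miR-146a is on the minus strand of the same chromosome (5p arm at chr10:28350053-28350074) and miR-146b on the plus strand of chromosome 1 (5p arm at chr1:255144874-255144897). miR-155-5p lies at chr11:37261117-37261139 and miR-223-3p at chrX:65151450-65151470, both on the plus strand. In the gene table of that assembly Mir155 overlapped its host transcript Mir155hg, Mir142 the span of Tspoap1, and Mir146b that of C1h10orf95. Mir223 and Mir146a each overlapped a long noncoding RNA without a name, and Mir150 overlapped no gene. That table gives neither strand nor exons. These positions describe the printed sequences and not the study's own alignment.

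The libraries held 305476 to 549446 reads over the listed miRNAs, and values are in CPM, reads of a miRNA scaled to the same total of listed miRNA reads in each library. A read was worth 1.82 to 3.27 CPM, and the lowest level treated as measurable, 3 reads, was 5.46 to 9.82 CPM. Intervals and this floor cover counting error only. The tissue label was checked with markers. Germ cell miRNAs (miR-34b, miR-34c and miR-449) summed to 312000 to 333900 CPM in the diabetic and 307000 to 356000 CPM in the normal libraries, and miRNAs of striated muscle to 30.8 to 65.4 and 26.4 to 38.7 CPM.

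The members took a small share of the testis miRNA reads and were led by the miR-146 pair. Which cells of the unsorted tissue these reads came from was not tested, so the share is not that of immune cells. All members together took 9900 of 2690909 reads, or 0.368%, and the 4 arms of miR-146a and miR-146b took 81.4% of these. The order of mean levels was rno-miR-146b-5p at 1754 CPM, rno-miR-146a-5p at 1226, rno-miR-142-3p at 402, rno-miR-150-5p at 175, rno-miR-142-5p at 58.8 and rno-miR-155-5p at 36.9 CPM, each a mean over 6 libraries. Neighbours from the first to the fifth place did not overlap in their ranges over the 6 libraries. The ranges of rno-miR-142-5p and rno-miR-155-5p did, the first being higher in 5 of 6 libraries. These 6 members had at least 10 reads in every library, as 257 of all 721 entries did. The other 4, rno-miR-146a-3p, rno-miR-223-3p, rno-miR-146b-3p and rno-miR-223-5p, had fewer than 10 reads in each library, and 13, 12, 4 and 4 reads over all 6 libraries. Their order cannot be read from so few reads. CPM of mature miRNAs were compared without a length term, since a read spans the whole molecule. How evenly the libraries captured different sequences was not tested. Orders of level and shares of arms given here are therefore those of reads, and may differ from those of molecules.

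**Figure D1:**
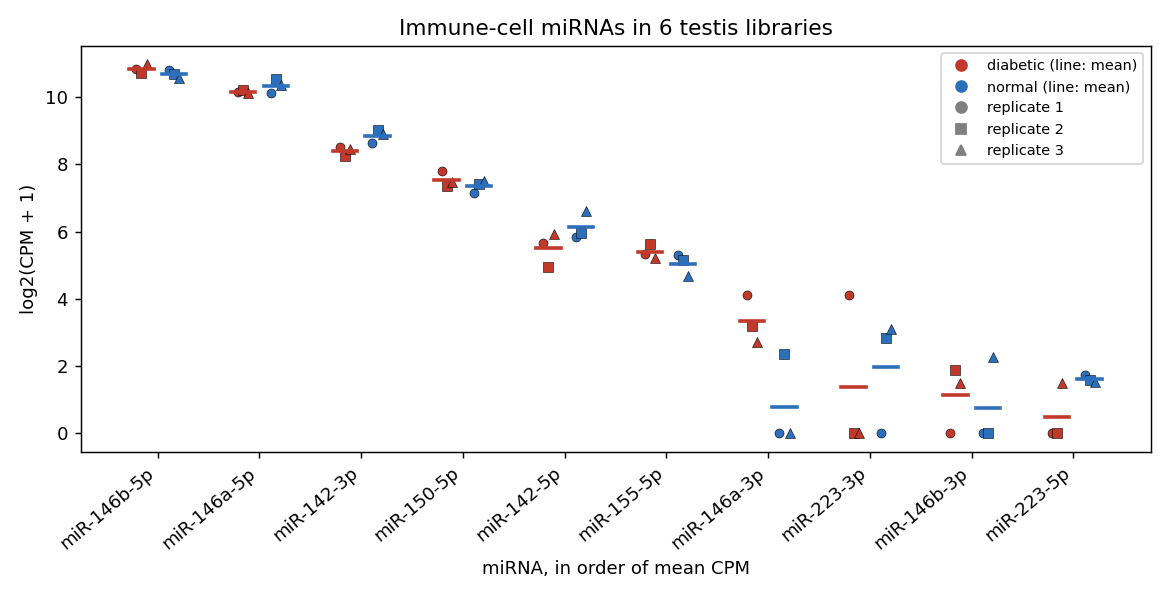
Level of each member in each of the 6 testis libraries, as log2(CPM + 1), with miRNAs in order of mean CPM, diabetic libraries in red and normal libraries in blue, marker shapes for replicates and lines for group means. The 6 members on the left have at least 10 reads in every library. Among these 6, the groups part without overlap for miR-142-3p alone, at 304 to 363 CPM in diabetic and 394 to 522 CPM in normal testes. Groups part in this way for 14.9% of all 578 miRNAs tested.

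The question of the series is how the miRNAs of the testis differ between diabetic and normal rats. Of the 10 members, all of which passed the filter of at least 1 CPM in at least 3 libraries, 0 had an adjusted p under 0.05 (limma, Benjamini-Hochberg over 578 miRNAs). The same held for all miRNAs tested (0%), of which edgeR called 2 and DESeq2 called 1. The smallest adjusted p of a member was 0.348 in limma, and 0 members passed in edgeR and in DESeq2 too. At an unadjusted p under 0.05 there were 2 members, rno-miR-142-3p and rno-miR-146a-3p, where the share over all miRNAs was 8.82%. The study screened for log2 changes of 1 or more at a p under 0.05, read here as unadjusted. By that screen 1 member passed in limma, rno-miR-146a-3p, against 4.67% of all. That member met the filter through the diabetic libraries, with 0, 2 and 0 reads in the normal ones, which favours a call of higher. The groups did not overlap for 3 members (14.9% of all miRNAs), 2 of them lower in diabetic testes (6.92% of all) and 1 higher (7.96% of all). Of the 2 lower members, rno-miR-223-5p met the filter through the normal libraries, with 0, 0 and 1 reads in the diabetic ones, which favours a lower order. The members were as often higher as lower, 5 each, with a median log2 change of -0.01 beside 0.0046 over all miRNAs tested. Counts over 10 members are too few to set them apart from these shares.

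**Figure D2:**
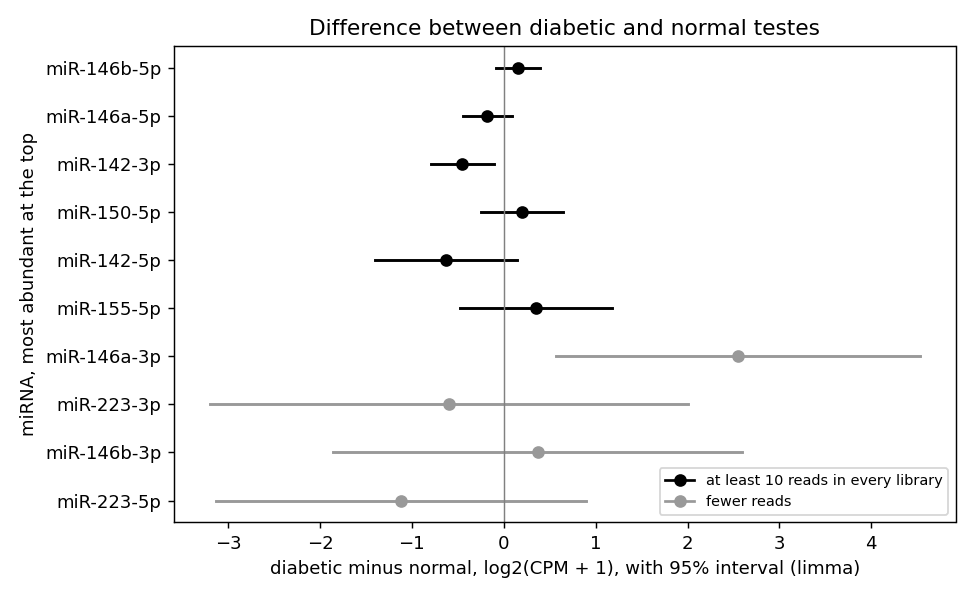
Difference between diabetic and normal testes for each of the 10 members on the log2(CPM + 1) scale, with its 95% interval from limma; members with at least 10 reads in every library are black and the others grey. The intervals leave out 0 for miR-142-3p (-0.80 to -0.10) and miR-146a-3p (0.57 to 4.53), before adjustment for the number of miRNAs tested.

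miR-142, the miRNA shared by most blood cell lineages, parted the groups for its main arm without passing the adjusted threshold. rno-miR-142-3p stood at 363, 304 and 349 CPM (111, 113 and 192 reads) in diabetic replicates 1, 2 and 3 and at 394, 522 and 479 CPM (174, 257 and 254 reads) in normal replicates 1, 2 and 3. All diabetic libraries were below all normal ones, although diabetic replicate 1 and normal replicate 1 lay close together. The mean was 339 ± 31.2 CPM against 465 ± 64.8 CPM (SD, n = 3 each), so that the diabetic level was 72.9% of the normal one. On the log2 scale the difference was -0.45 ± 0.16 (SE), and limma gave an adjusted p of 0.348. The exact permutation test, two-sided, gave p = 0.1, which is the smallest value that 3 against 3 libraries allow. The unadjusted p in limma was 0.0141 with all libraries, 0.0540 without diabetic replicate 2 and 0.0672 without normal replicate 2, and it was 0.0583 with eBayes without the trend.

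rno-miR-142-5p, the scarcer arm of the same hairpin, pointed the same way without parting the groups. It had 49.1, 29.6 and 60.1 CPM in the diabetic and 56.7, 60.9 and 96.2 CPM in the normal libraries, from 11 to 51 reads each. The highest diabetic value exceeded the lowest normal one. Its log2 difference was -0.63 ± 0.36 (SE), with an interval from -1.40 to 0.14 (adjusted p = 0.685, limma; p = 0.2, exact permutation test), and it was -0.35 without diabetic replicate 2 and -0.40 without normal replicate 3. Since both arms come from 1 precursor, they are not separate evidence. The ratio of the arms does not depend on how libraries are scaled. The 5p arm made up 13.0% of miR-142 reads over all libraries (165 against 1101 reads, Wilson 95% interval 11.3% to 15.0%). The ratio of 5p to 3p was 0.135, 0.0975 and 0.172 in the diabetic and 0.144, 0.117 and 0.201 in the normal libraries. The groups overlapped almost fully (log2 difference -0.18, exact permutation p = 0.6), so that no shift between arms was detectable at this depth.

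**Figure D3:**
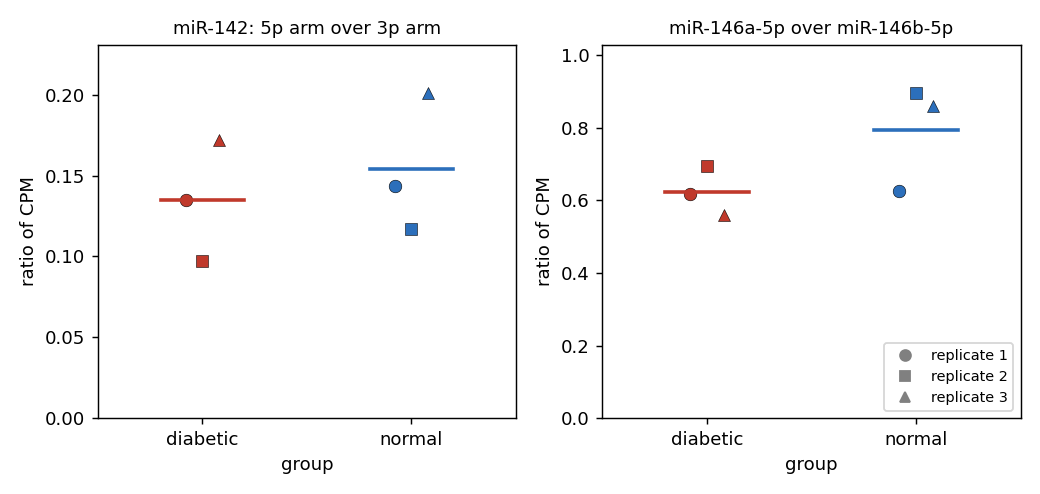
Ratio of CPM of the miR-142 arms (left) and of miR-146a-5p to miR-146b-5p (right) in each library, with lines for group means, red for diabetic and blue for normal testes, and axes that start at 0. The arm ratios overlap between groups, and for the miR-146 pair normal replicate 1 at 0.625 lies among the diabetic libraries while normal replicates 2 and 3 lie above all of them.

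miR-223, the myeloid miRNA, gave next to no reads. rno-miR-223-3p, the arm that accumulates in neutrophils, gave 5, 0 and 0 reads in diabetic testes against 0, 3 and 4 in normal ones. Of the 6 libraries 3 held none, and the single highest value was in diabetic replicate 1. Its mean CPM was higher in the diabetic group (5.47 ± 9.47 against 4.53 ± 3.99, SD, n = 3 each) while its log2 difference was -0.60, with an interval from -3.20 to 2.005, so the sign depends on the scale. rno-miR-223-5p had 0, 0 and 1 reads against 1, 1 and 1. It counts among the members whose groups did not overlap, but only because 1 read was worth 1.82 CPM in diabetic replicate 3 and 1.89 to 2.27 CPM in the normal libraries. It also met the filter through the normal libraries, so this order carries a bias towards a lower diabetic level. No fold is given for it. A difference in miR-223 was not detectable at this depth. By comparison, rno-miR-142-3p, made by the same myeloid cells and by others, had 1101 reads over the 6 libraries where rno-miR-223-3p had 12.

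miR-150, the miRNA of mature lymphocytes, was measured in every library and did not separate the groups. rno-miR-150-5p stood at 222.6, 161 and 178 CPM in the diabetic and at 140.5, 169 and 179 CPM in the normal libraries. Diabetic replicate 1 was the highest of all and normal replicate 1 the lowest, with the other 4 between them in no order of group. The log2 difference was 0.20 ± 0.21 (SE), and its interval ran from -0.25 to 0.64 (limma, adjusted p = 0.795; exact permutation p = 0.5). It was 0.067 without diabetic replicate 1, 0.095 without normal replicate 1 and 0.30 without diabetic replicate 2.

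miR-155, which rises when macrophages and lymphocytes are activated, was scarce. rno-miR-155-5p had 39.3, 48.4 and 36.4 CPM in the diabetic and 38.5, 34.5 and 24.5 CPM in the normal libraries, from 12 to 20 reads each. Diabetic replicate 2 was the highest and normal replicate 3 the lowest, and the remaining 4 lay within 34.5 to 39.3 CPM. The log2 difference was 0.35 ± 0.39 (SE; adjusted p = 0.800, limma; p = 0.2, exact permutation test). Its interval, from -0.47 to 1.18, takes in both a decrease and a rise by more than 1 on the log2 scale, and the difference was 0.17 without normal replicate 3.

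miR-146a and miR-146b share their seed and so the core of their targets. rno-miR-146a-5p stood at 1139, 1175 and 1125 CPM in the diabetic and at 1124, 1484 and 1307 CPM in the normal libraries. The diabetic libraries lay close together (1146 ± 25.6 CPM), and normal replicate 1 fell just below them while the other normal libraries were higher (1305 ± 180 CPM over all 3). The log2 difference was -0.18 ± 0.12 (SE; adjusted p = 0.728, limma; p = 0.4, exact permutation test). rno-miR-146b-5p stood at 1846, 1691 and 2011 CPM in the diabetic and at 1800, 1659 and 1520 CPM in the normal libraries. Its groups overlapped as well, with a log2 difference of 0.16 ± 0.11 (SE; adjusted p = 0.762, limma; p = 0.2, exact permutation test). With 348 reads or more in every library, these were the members with the most reads and the narrowest intervals: -0.44 to 0.09 for rno-miR-146a-5p and -0.09 to 0.40 for rno-miR-146b-5p. Normal replicates 1 and 2 moved the difference of rno-miR-146a-5p most, to -0.28 without the first and -0.081 without the second. That of rno-miR-146b-5p was 0.094 without diabetic replicate 3 and 0.095 without normal replicate 3.

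The ratio of rno-miR-146a-5p to rno-miR-146b-5p was 0.617, 0.695 and 0.559 in the diabetic and 0.625, 0.895 and 0.860 in the normal libraries. This ratio was chosen after the values of the pair were seen, so it is given with no test. rno-miR-146b-5p was the higher of the pair in 6 of 6 libraries. On the log2 scale the ratio was -0.69 ± 0.16 in diabetic and -0.35 ± 0.28 in normal testes (SD, n = 3 each), a difference of -0.33 that was larger than the SD of either group, with groups that overlapped. It rests on a split of reads between near-identical sequences. The 4 arms of both genes summed to 3007 ± 134 CPM in diabetic and 2967 ± 162 CPM in normal testes (SD, n = 3 each), a difference of 39.8 CPM that was smaller than the SD of either group. It turned to -25.0 CPM with DESeq2 size factors, -28.4 CPM without diabetic replicate 3 and -28.2 CPM without normal replicate 3.

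The passenger arm rno-miR-146a-3p showed the largest fitted log2 change among the 10 members, 2.55, on 13 reads in all. The value follows the pseudocount, being 4.71 with a pseudocount of 0.1, and ranged from 2.16 to 3.34 when 1 library was left out. Diabetic replicates 1, 2 and 3 had 5, 3 and 3 of them (16.4, 8.10 and 5.50 CPM) and normal replicates 1, 2 and 3 had 0, 2 and 0 (0, 4.10 and 0 CPM). All diabetic libraries were above all normal ones, each by a handful of reads. Since the filter was met through the diabetic libraries, this order and the p-values carry a bias towards a higher diabetic level. Every normal library was at or under 3 reads, and diabetic replicates 2 and 3 were at 3 reads too, so no minimum fold is given. The adjusted p was 0.348 in limma (unadjusted 0.0149; exact permutation p = 0.1). The unadjusted p was 0.0641 without diabetic replicate 1, 0.0557 without normal replicate 3 and 0.0700 in the DESeq2 test. The log2 difference of its main arm had the opposite sign, and the 5p arm made up 99.6% of miR-146a reads, 3323 against 13. rno-miR-146b-3p gave 0, 1 and 1 reads in the diabetic and 0, 0 and 2 in the normal libraries, and no fold is given.

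**Figure D4:**
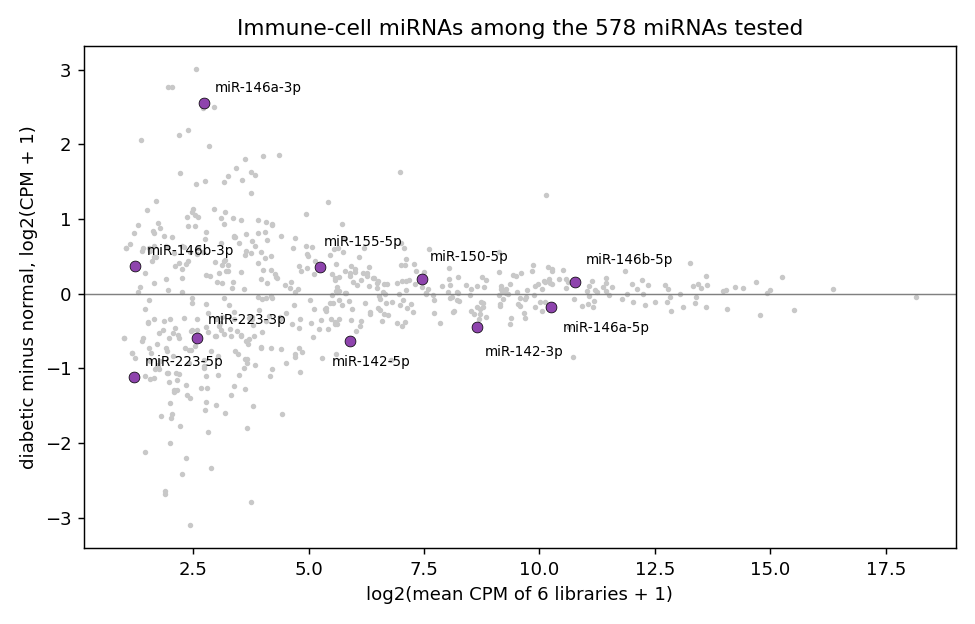
Difference between diabetic and normal testes (vertical, log2(CPM + 1) scale) against mean level (horizontal, log2 of mean CPM + 1) for the 578 miRNAs tested in grey, with the 10 members in purple. The differences of all miRNAs spread widely at low levels, where miR-146a-3p, miR-223-3p, miR-223-5p and miR-146b-3p lie, and narrowly at high levels, where the 2 main arms of miR-146 lie.

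Summed without the miR-146 arms, the other members (miR-142, miR-150, miR-155 and miR-223, 6 arms) stood at 691, 543 and 626 CPM in the diabetic and at 632, 794 and 789 CPM in the normal libraries. Wilson 95% intervals were 604 to 790, 473 to 623 and 563 to 696 CPM for diabetic replicates 1, 2 and 3, and 562 to 711, 719 to 876 and 717 to 868 CPM for normal replicates 1, 2 and 3. Diabetic replicate 1 exceeded normal replicate 1, and normal replicates 2 and 3 were above all other libraries. The means were 619.9 ± 74.1 and 738.2 ± 91.7 CPM (SD, n = 3 each), and the difference of -118 CPM was larger than the SD of either group. It ran from -171 to -79.7 CPM when 1 library was left out. The lower sum came from miR-142, with means of 338.8 against 465.1 CPM for the 3p arm and 46.27 against 71.27 CPM for the 5p arm. Means of rno-miR-150-5p (187.4 against 162.7 CPM) and rno-miR-155-5p (41.37 against 32.5 CPM) were higher in diabetic testes, and miR-223 added next to nothing. The sum is thus not a fall shared by these miRNAs. All 10 members summed to 3627 ± 184 CPM in diabetic and 3705 ± 205.9 CPM in normal testes (SD, n = 3 each). The difference of -78.5 CPM was smaller than the SD of either group. It was -159.5 CPM with DESeq2 size factors, and turned sign without diabetic replicate 2 (25.5 CPM) or normal replicate 2 (39.0 CPM). No test is given for these sums, which are scores over a set proposed with earlier results known. The split into the miR-146 arms and the other members was added after seeing the data.

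Levels of the members did not go up and down together as a group over the 6 libraries. The Pearson correlation of log2(CPM + 1), given as a description over 6 libraries that share their scaling, was 0.77 between the arms of miR-142 and 0.83 between rno-miR-142-3p and rno-miR-146a-5p. It was -0.67 between rno-miR-146a-5p and rno-miR-146b-5p, which rests on the uncertain split of reads between near-identical sequences. It was -0.96 between rno-miR-142-5p and rno-miR-155-5p, from only 11 to 51 and 12 to 20 reads in a library. Correlations of rno-miR-150-5p with the other 5 ran from -0.15 to 0.15. The known miRNAs most like each member, out of 226 candidates with at least 10 reads in every library, were rno-miR-195-5p (0.96) for rno-miR-142-3p, rno-miR-374-5p (0.85) for rno-miR-142-5p, rno-miR-742-5p (0.92) for rno-miR-150-5p, rno-miR-181c-5p (0.93) for rno-miR-155-5p, rno-miR-181d-5p (0.91) for rno-miR-146a-5p and rno-miR-23b-3p (0.98) for rno-miR-146b-5p. rno-miR-339-5p came second for both rno-miR-142-3p (0.92) and rno-miR-146a-5p (0.91). With 226 candidates and 6 libraries, high values of this kind arise readily and were not tested.

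Other miRNAs tied to blood cells and inflammation were set beside the members. Of 13 listed arms of miR-9a, miR-21, miR-132, miR-147, miR-212, miR-342 and miR-511, 12 were tested and 0 passed the adjusted threshold in limma. At an unadjusted p under 0.05 there was 1, where the share over all miRNAs was 8.82%. Of the 12, 7 were higher and 5 lower, with a median log2 change of 0.06. rno-miR-21-5p, which is abundant in many cell types and rises in inflamed tissue, averaged 43360 ± 2740 CPM in diabetic against 50190 ± 3043 CPM in normal testes (SD, n = 3 each; log2 difference -0.21, limma adjusted p = 0.406). Its groups did not overlap, as was the case for rno-miR-9a-3p (199 ± 6.41 against 163 ± 19.4 CPM, limma adjusted p = 0.728). These were 2 of the 12 tested, beside 14.9% of all miRNAs. rno-miR-9a-5p, the other arm of miR-9a, had a log2 difference of 0.03, which turned negative under 2 other scalings and without diabetic or normal replicate 1. The groups overlapped for rno-miR-342-3p, a lymphocyte-rich miRNA, and for rno-miR-511-3p, which comes from the macrophage mannose receptor gene.

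Markers of other cells differed between groups in part. Red blood cell miRNAs (miR-451, miR-144 and miR-486, 4 arms) summed to 544 to 782 CPM in the diabetic and 678 to 741 CPM in the normal libraries, with 0 of 4 past the adjusted threshold in limma (0 at an unadjusted p under 0.05 too) and none at 0 throughout. Both arms of miR-126a, listed as an endothelial marker, summed to 11720 to 13780 CPM against 8662 to 11090 CPM. Both arms of miR-202, listed as a Sertoli cell marker, summed to 4102 to 4467 CPM against 3262 to 3693 CPM. For each sum the diabetic libraries were higher without overlap, and which cells the reads came from was not tested. The arms of miR-202 differed in sign, with a log2 difference of 0.30 for rno-miR-202-5p and -0.18 for rno-miR-202-3p, while those of miR-126a did not (0.41 for rno-miR-126a-3p and 0.13 for rno-miR-126a-5p). Epithelial miRNAs summed to 107 to 140.7 CPM against 131.5 to 158 CPM. Of the 6 epithelial arms tested 4 were higher and 2 lower, with a median log2 change of 0.18, so that their sum and median differ in sign. The 2 of them under an unadjusted p of 0.05 in limma were rno-miR-200c-3p (1.63 ± 0.73, SE) and rno-miR-205 (-1.61 ± 0.59, SE). Epithelial arms were scarce, and of the 9 listed only 1 had at least 10 reads in every library. Of the 2 arms of miR-126a, the 2 of miR-202 and the 6 epithelial ones tested, 0 passed the adjusted threshold in limma. Under an unadjusted p of 0.05 were 1, 1 and 2 of them, beside 8.82% of all miRNAs tested. Single miRNAs had groups without overlap in 14.9% of all tested. The part of these marker differences in the level of rno-miR-142-3p was not tested.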

How the data were processed

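Small RNA from testes of 3 diabetic and 3 normal rats was sequenced, and samples were grouped by their labels alone. By its methods section, the authors trimmed primers and adaptors, counted small RNAs and named known miRNAs by miRBase family. The deposited table holds CPM, given by the authors with 1 decimal, under headings that read TPM. The submitters' processing notes name Bowtie 0.12.2, HISAT2 2.0, StringTie 1.3.0 and the build mm8, a mouse build, without roles, and the labels describe a poly(A) library, which does not match miRNA sequencing. The miRBase release and the handling of reads that fit several miRNAs are not given in the sources used here.

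Whole reads were recovered from the CPM (100% of values whole within 0.05 CPM). Differences were tested with limma 3.58.1 (lmFit, eBayes with a mean-variance trend; R 4.3.3) on log2(CPM + 1), a scale that understates changes of scarce miRNAs, over the 578 miRNAs that reached 1 CPM in 3 libraries or more, without covariates, and adjusted by Benjamini-Hochberg. edgeR 4.0.16 and DESeq2 1.42.0 on the recovered reads were alternatives, and all 3 were checked on made-up reads with known changes. For single miRNAs an exact permutation test, two-sided, was added. Nothing states that same-numbered rats were paired. P-values measure the spread between these libraries, and in limma the spread of a miRNA is drawn towards that of others of similar level. Every member was named. From each comparison list the 3 most abundant were eligible to be named with values, and rno-miR-342-3p, rno-miR-511-3p and the marker arms given singly were named beyond this rule after their values were seen. For the patterns most like a member, the first of the 2 that the rule gives is named, and the second where 2 members share it. Members and lists were chosen with earlier results of these data known.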

Additional observations from a re-analysis of the deposited data

How the results depend on the processing

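No member passed an adjusted p of 0.05 in limma under any alternative tried, nor in edgeR or DESeq2. Of 140 comparisons of a member with another setting, 135 kept the direction and 5 turned it, all in members with at most 5 reads in any library. rno-miR-223-3p had a log2 difference of 0.091 in the DESeq2 test and ranged from -1.58 to 0.089 when 1 library was left out. rno-miR-146b-3p ranged from -0.0072 to 0.93 when 1 library was left out. Without diabetic replicate 1, normal replicate 2 or normal replicate 3, rno-miR-223-3p failed the filter and was not fitted. The same held for rno-miR-146b-3p without diabetic replicate 2, diabetic replicate 3 or normal replicate 3. Neither these ranges nor the 140 comparisons include such fits. rno-miR-142-3p ranged from -0.56 to -0.36 over its 15 alternatives, with adjusted p from 0.302 to 0.726. The 1 member that passed the study's screen, rno-miR-146a-3p, became 0 under a minimum of 10 reads per library, which removes it, and with the DESeq2 test, and ranged from 0 to 1 when 1 library was left out (0 without diabetic replicate 1 or normal replicate 3). Over all miRNAs, the 0 past the adjusted threshold (51 at an unadjusted p under 0.05) became 8 when eBayes ran without a trend, 2 with the edgeR test and 1 with no filter, under a minimum of 10 reads per library, with TMM factors, with the DESeq2 test and with the replicate block, and they ranged from 0 to 2 when 1 library was left out (2 without normal replicate 2, and 1 without diabetic replicate 1, diabetic replicate 3 or normal replicate 3). The 27 that passed the study's screen became 1 under the minimum of 10 reads and 11 with the DESeq2 test, and ranged from 17 (without normal replicate 3) to 30. Apart from the stricter filter, which tests fewer miRNAs, the cause was not tested.

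Without the most abundant member the difference in summed CPM (diabetic minus normal) was -268 CPM, and it ranged from -153 to 39.0 when 1 library was left out, with a sign that turned as given above. For the sum of miR-142, miR-150, miR-155 and miR-223 it was -134.5 CPM with DESeq2 size factors, and for the miR-146 arms it ranged from -28.4 to 129 CPM when 1 library was left out. The split into these sums and both alternatives were added after seeing the data. The log2 arm ratio of miR-142 differed by -0.37 to 0.03 (above 0 without diabetic replicate 2 or normal replicate 3), and the ratio of the miR-146 pair, added after seeing the data, by -0.50 to -0.24. Among the red blood cell miRNAs rno-miR-451-5p was at -0.021 with DESeq2 size factors, -0.039 with TMM factors, -0.0080 with edgeR and -0.013 with the DESeq2 test (-0.23 to 0.16 without 1 library), rno-miR-144-3p at 0.00026 with a pseudocount of 0.1 (-1.06 to 0.72) and rno-miR-486 from -0.23 to 0.032. rno-miR-9a-5p was at -0.0022 with DESeq2 size factors and -0.020 with TMM factors (-0.20 to 0.25). Same-numbered libraries had correlations of 0.0065, -0.069 and -0.089 in their deviations from the group means over 257 miRNAs, so no pairing by number was detectable. These correlations cannot show whether rats or libraries were matched in handling. With the replicate block 0 members passed the adjusted threshold, as in the fit without it. Depth limits the 4 scarce arms, none of which exceeded 5 reads in a library.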
